A study of Homo sapiens with 30 samples.

Results

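Fibroblast growth factor (FGF) signalling was examined here through the positions of 2 Polycomb proteins, RING1 and RNF2, at its genes in neural progenitor cells. The genes were 33 in number and were chosen by family membership, not by a measured value. Earlier results of these data were known when the choice was made. They comprised 22 ligand genes (FGF1 to FGF14 and FGF16 to FGF23), 4 receptor genes (FGFR1 to FGFR4) and 7 feedback inhibitor genes (SPRY1 to SPRY4 and SPRED1 to SPRED3), out of 20037 protein-coding genes. All 33 were found in the annotation. A gene was counted for a peak list when a peak came within 2 kb of either annotated gene end.

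The series holds 30 CUT&RUN libraries, an assay in which an antibody-tethered nuclease cuts out the DNA bound by a protein. The cells were a monolayer of neural progenitors derived from the established embryonic stem cell line H9 and carried 5 genotypes: wild type, a RING1 missense change in 1 copy or in both, RING1 knockout and an RNF2 missense change. All genotypes were cultured in a medium with added FGF, and the response of the cells to it was not measured here. The values below come from wild-type cells only, with 2 libraries of anti-RING1 and 2 of anti-RNF2, each represented by 1 list of broad peaks. A number in their names pairs 1 RING1 list with 1 RNF2 list, and the pairs are named sets A and B. The labels tie neither pair to a replicate number and do not say whether the replicates were separate cultures. The edited genotypes, the H2AK119ub1 libraries and the IgG libraries were not analysed here. Peak lists hold no RNA values, so neither the progenitor identity of the cells nor the expression of any FGF gene was checked.

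RING1 and RNF2 are the alternative catalytic subunits of Polycomb repressive complex 1, which attaches ubiquitin to histone H2A at genes held silent or poised during development. FGF ligands bind receptor tyrosine kinases at the cell surface, with heparan sulphate or Klotho proteins as partners, and the receptors signal through RAS and the ERK kinases. Sprouty and Spred proteins damp that relay. In the developing brain FGF8 and its relatives pattern the forebrain and the midbrain-hindbrain boundary, and FGF2 is the usual mitogen of cultured neural progenitors.

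The start regions of 6 members are shown because peaks at these genes went with the CG content of the start. The first 4 belong to the members with the highest RNF2 fold enrichment in the weaker of both sets, among those with a RefSeq promoter entry. The last pair are the first members in family order that had such an entry and no peak in any list. Each covers 250 bases before to 50 bases after the outermost annotated start (RefSeq, GRCh38.p14), written 5′ to 3′ on the strand of the gene, with every CG dinucleotide in capitals. FGF11 lies at chr17:7438048-7438347 and FGF5 at chr4:80266338-80266637, both on the plus strand. FGF3 lies at chr11:69819367-69819666, FGF14 at chr13:102402394-102402693, FGF1 at chr5:142698021-142698320 and FGF6 at chr12:4445766-4446065, all on the minus strand.
FGF11: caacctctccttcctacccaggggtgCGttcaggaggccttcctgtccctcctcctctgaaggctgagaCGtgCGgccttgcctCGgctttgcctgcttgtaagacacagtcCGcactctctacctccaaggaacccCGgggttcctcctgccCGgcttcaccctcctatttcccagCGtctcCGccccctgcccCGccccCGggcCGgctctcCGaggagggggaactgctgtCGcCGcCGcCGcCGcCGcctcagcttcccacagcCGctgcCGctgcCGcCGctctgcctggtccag
FGF5: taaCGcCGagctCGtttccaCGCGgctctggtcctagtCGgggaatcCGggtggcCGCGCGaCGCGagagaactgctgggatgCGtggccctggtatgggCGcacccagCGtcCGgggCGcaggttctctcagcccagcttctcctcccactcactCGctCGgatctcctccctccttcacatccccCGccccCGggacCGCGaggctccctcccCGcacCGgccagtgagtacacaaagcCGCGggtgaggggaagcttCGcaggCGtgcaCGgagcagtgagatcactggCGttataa
FGF3: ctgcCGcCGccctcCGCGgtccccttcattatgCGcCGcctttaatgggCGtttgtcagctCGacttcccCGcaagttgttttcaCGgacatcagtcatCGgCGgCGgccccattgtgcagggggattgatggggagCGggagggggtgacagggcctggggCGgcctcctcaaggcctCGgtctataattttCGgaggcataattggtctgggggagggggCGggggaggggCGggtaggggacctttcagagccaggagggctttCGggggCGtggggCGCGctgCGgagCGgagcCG
FGF14: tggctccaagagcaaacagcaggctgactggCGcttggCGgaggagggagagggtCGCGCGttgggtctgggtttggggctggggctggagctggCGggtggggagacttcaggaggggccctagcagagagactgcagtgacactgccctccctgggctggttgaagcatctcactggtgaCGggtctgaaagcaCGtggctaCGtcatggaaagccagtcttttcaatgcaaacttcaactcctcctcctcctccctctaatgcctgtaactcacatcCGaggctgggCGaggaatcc
FGF1: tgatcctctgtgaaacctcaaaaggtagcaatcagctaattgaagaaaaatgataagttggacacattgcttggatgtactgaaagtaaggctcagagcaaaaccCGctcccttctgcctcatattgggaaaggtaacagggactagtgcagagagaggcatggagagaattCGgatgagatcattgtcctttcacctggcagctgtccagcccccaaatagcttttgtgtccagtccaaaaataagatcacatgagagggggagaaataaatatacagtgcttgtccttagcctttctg
FGF6: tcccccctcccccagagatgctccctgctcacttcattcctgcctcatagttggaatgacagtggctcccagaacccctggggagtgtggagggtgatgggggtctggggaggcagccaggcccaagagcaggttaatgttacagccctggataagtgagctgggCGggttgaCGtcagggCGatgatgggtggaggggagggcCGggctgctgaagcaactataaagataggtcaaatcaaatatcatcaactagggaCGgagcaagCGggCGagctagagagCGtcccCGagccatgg

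These windows held 23 CG dinucleotides at FGF11, 31 at FGF5, 26 at FGF3 and 11 at FGF14, against 2 at FGF1 and 9 at FGF6. RNF2 peaks of set A covered the whole window at the first 4 genes. In set B the RNF2 peak covered all of it at FGF11 and FGF5, 69% of it at FGF14 and none of it at FGF3, where the peak lay inside the gene and stopped 295 bases short of the start. RING1 of set A covered all of the window at FGF11 and FGF5, 54.3% at FGF14 and none at FGF3.

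Most FGF pathway members carried both proteins in set A, a minority carried RNF2 in both sets, and none carried RING1 in set B. In set A, RING1 was at 22 of the 33 members (66.7%), where 45.6% of all protein-coding genes had it, and RNF2 was at 24 (72.7%), against 56.1%. Both proteins were thus at 66.7% of members, against 43.0% of all genes. All 22 members with RING1 also had RNF2, as did 8620 of all 9144 genes with RING1 in set A. In set B, RNF2 was at 10 members (30.3%, against 21.7%) and RING1 at 0, where it was at 1.32% of all genes. The 10 members with RNF2 in set B all had it in set A, so that RNF2 was in both sets at 30.3% of members and 20.8% of genes. RING1 in both sets (1.31% of all genes) and presence in all 4 lists (1.28%) had 0 members each. The RING1 list of set B is the shortest, with 659 peaks against 12891 in set A, and beside a background of 1.32% the absence of members from it is not a result about them. The remaining 9 members (27.3%, against 40.6% of all genes) had no peak in any list: FGF1, FGF4, FGF6, FGF7, FGF16, FGF21, FGF23, SPRY1 and SPRY3. Most peaks were of low significance, at members and over all genes alike. At a −log10 q of at least 5, RING1 of set A remained at 2 members (FGF11 and FGF17). RNF2 of set A remained at 9 and RNF2 of set B at 0. The shares of all genes for these 3 lists were 7.97%, 15.7% and 2.56%. In the same order, the median −log10 q at members called was 2.73, 3.68 and 2.85, beside 2.77, 3.39 and 2.29 over all genes called.

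**Figure D1:**
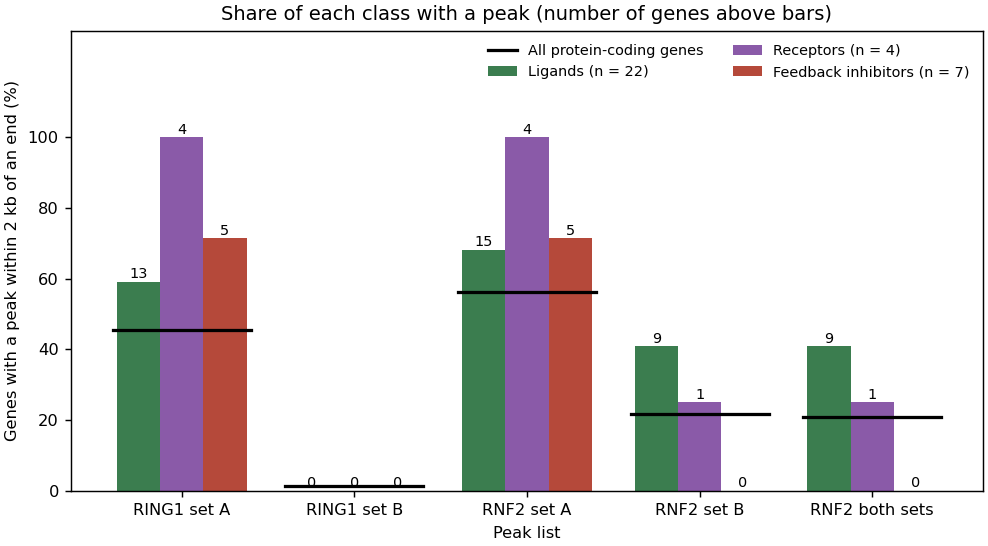
Bars give the percentage of the 22 ligands, 4 receptors and 7 feedback inhibitors with a peak within 2 kb of a gene end in each list, and in both RNF2 lists; numbers above bars count genes and black lines mark all 20037 protein-coding genes. The 4 receptors all had a peak in both lists of set A, and no feedback inhibitor had one in set B.

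Ligands made up 9 of the 10 members with RNF2 in both sets. The ligand class was drawn by gene name and includes FGF11 to FGF14, which are not secreted. FGF11 and FGF14 are among the 9, so the class counts are not counts of secreted ligands. By class, RNF2 was in both sets at 9 of 22 ligands (40.9%), 1 of 4 receptors (25%) and 0 of 7 feedback inhibitors, beside the 20.8% of all genes. Counting set A by itself, RNF2 was at 15 ligands (68.2%), 4 receptors and 5 feedback inhibitors (71.4%), beside 56.1% of all genes. RING1 was there at 13, 4 and 5, beside 45.6%. No test was made between classes, since peak calls at genes are not replicates and the classes are small. With windows of 5 kb the feedback inhibitors had 1 member with RNF2 in both sets, SPRED2, whose nearest set B peak lay 4.43 kb from a gene end. With those windows 23.4% of all genes had RNF2 in both sets.

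The fold enrichment of a peak is the signal over background that the authors' peak caller gave, used here to describe peaks and to rank them within a list. The sequences above, and the other pathway genes named further on, were picked by the smaller RNF2 fold of both sets, which sets folds of different lists side by side and serves only to choose them. Members' peaks were near the median of all genes called in fold and wider than it. In RNF2 set A the members called had a median fold of 4.58 and a median width of 2601 bp, beside 4.33 and 1156 bp over all 11236 genes called. In RING1 set A these were 4.10 and 1882 bp, beside 4.19 and 802 bp, and in RNF2 set B 4.17 and 1778 bp, beside 3.85 and 897 bp. These medians describe only members that had a peak. The highest fold of any member was 7.64, at FGF11 in RNF2 set A, where the list reaches 20.3, and the widest peak was 9084 bp, at FGF8 in the same list.

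**Figure D2:**
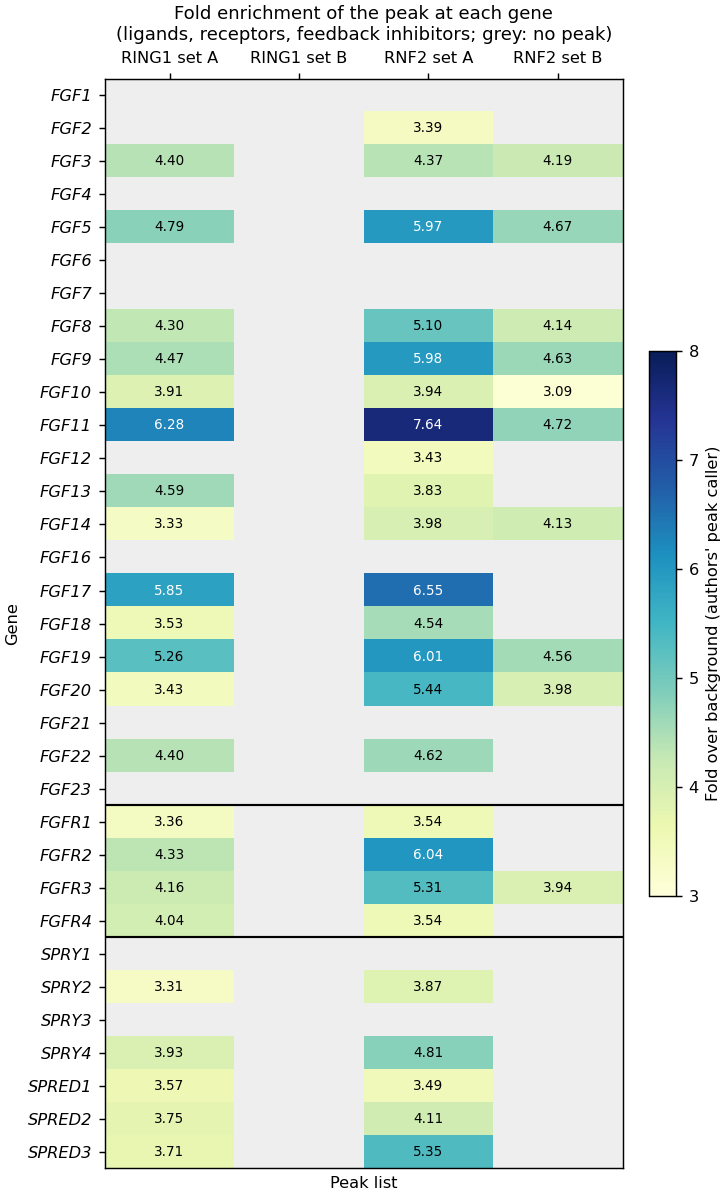
Each row is a gene and each column a peak list; numbers and colour give the fold enrichment over background of the peak at that gene (the highest where there were several), and grey marks no peak within 2 kb. Black lines part ligands, receptors and feedback inhibitors. The RING1 set B column is empty, and the 10 values of RNF2 set B lie between 3.09 and 4.72.

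Among the secreted ligands of development, FGF5, FGF9 and FGF19 ranked highest within each RNF2 list among those with RNF2 in both sets. FGF5 (chr4:80266588-80291017), a brake on hair growth that also marks the early epiblast, had a RING1 fold of 4.79 in set A and RNF2 folds of 5.97 and 4.67 in sets A and B, with widths of 4647, 8020 and 3938 bp. FGF9 (chr13:21671073-21704498), which acts in lung, gonad and skeletal development, had folds of 4.47, 5.98 and 4.63 in the same order, with widths of 5630, 6730 and 5575 bp. FGF19, an endocrine ligand that also acts in the embryonic brain and ear, had 5.26, 6.01 and 4.56, with widths of 2511, 4782 and 2519 bp. At all of these genes the RNF2 folds of set A exceeded those of at least 90.3% of peaks in that list, and the set B folds those of at least 85.9%. The −log10 q of the RNF2 peaks in set A was 6.22 at FGF5, 6.83 at FGF9 and 6.24 at FGF19. At FGF9 the peaks of the 3 lists were nearly the same stretch, the set B RNF2 peak lying whole within that of set A and covering 96.7% of the RING1 peak.

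FGF8 (chr10:101770109-101780369), the organiser ligand of the midbrain-hindbrain boundary, and FGF3, a ligand of ear and tooth development, recurred at lower folds. FGF8 had a RING1 fold of 4.30, in a peak of 3654 bp, and RNF2 folds of 5.10 and 4.14 in sets A and B. Its RNF2 peak was 9084 bp wide in set A and 1266 bp at that gene end in set B, with a separate set B peak of 3420 bp and fold 3.58 inside the gene. The FGF8 peaks also lay within 2 kb of an end of NPM3, the neighbouring gene of a nucleolar chaperone, so they cannot be assigned to FGF8 alone. FGF3 had 4.40 for RING1 and 4.37 and 4.19 for RNF2, with widths of 1815, 2620 and 1066 bp. Thus FGF8 had 1 wide RNF2 peak in set A and 2 narrower ones in set B, and FGF3 was moderate in all 3 lists.

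FGF20 and FGF10 recurred close to the limit of detection in 1 or more lists. FGF20 (chr8:16992181-17002345), a ligand of inner ear and hair placode development, had a RING1 fold of 3.43 with −log10 q of 1.47 in set A, and RNF2 folds of 5.44 and 3.98 in sets A and B. The FGF20 peaks were 824, 1933 and 1764 bp wide in that order. FGF10 (chr5:44300247-44389420), the mesenchymal ligand of limb and lung buds, had 3.91 for RING1 and 3.94 and 3.09 for RNF2, with widths of 708, 3076 and 368 bp. Its set B peak had a −log10 q of 1.06, and only 0.678% of peaks in that list had a lower fold. The lists end at a −log10 q just above 1, so the FGF10 call in set B sits at the edge. When 500 bases of a window had to be covered, FGF10 was the 1 member lost from RNF2 in both sets.

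Both FGF8 relatives had peaks in set A only. FGF17 (chr8:22039672-22048809) had a RING1 fold of 5.85 and an RNF2 fold of 6.55, with widths of 3915 and 8240 bp. Only FGF11 exceeded it in either list. The FGF17 peaks met the gene end with the higher coordinate and also lay at an end of DMTN, the gene of an actin-binding protein, and the nearest RNF2 peak of set B was 92.7 kb away. FGF18, a ligand of bone and cartilage growth, had 3.53 and 4.54 with the start inside both peaks, and its nearest set B RNF2 peak was 31.0 kb away. Members of the FGF8 subfamily thus all carried RING1 and RNF2 in set A (3 of 3, beside 43.0% of all genes). FGF8 alone carried RNF2 in set B, beside 21.7% of all genes. With 3 genes, such counts are too small to set the subfamily apart. Without peaks shared with another gene, FGF18 alone of these remained, in set A.

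The intracellular factors FGF11 to FGF14 are not secreted and bind voltage-gated sodium channels in neurons. All 4 had RNF2 in set A, 3 had RING1 there and FGF11 and FGF14 had RNF2 in set B as well. Over all genes these shares were 56.1%, 45.6% and 21.7%, and 4 genes are too few to stand apart from them. FGF11 (chr17:7438298-7444937) led all members, with a RING1 fold of 6.28 in set A and RNF2 folds of 7.64 and 4.72 in sets A and B. The RNF2 fold of set A exceeded 96.6% of peaks in its list, with −log10 q of 9.79. All 3 peaks, of 3502, 3712 and 5694 bp, spanned the start and also lay at an end of TMEM102, so they cannot be assigned to FGF11 alone.

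FGF14 (chr13:101710804-102402443), mutated in a spinocerebellar ataxia, had a RING1 fold of 3.33 and RNF2 folds of 3.98 and 4.13 at its outermost start, with widths of 2273, 3604 and 597 bp. That RING1 peak was close to the limit of detection, with −log10 q of 1.33 and a fold above only 7.1% of its list. A stronger RNF2 peak of set A lay inside the gene, over another annotated start at position 101916945, with 6207 bp and a fold of 5.08. RING1 of set A had 2543 bp at 4.45 over that same start, and RNF2 of set B had 1208 bp at 3.88, ending 1664 bp from it. FGF14 thus carried RNF2 of both sets near its outermost start and near another one inside the gene.

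FGF12 (chr3:192139390-192727541) was counted for RNF2 in set A alone, from a peak of 966 bp with a fold of 3.43 over its outermost start. At the second annotated start, position 192409597 and well inside the gene, RNF2 of set A had 2539 bp at 4.39 and RING1 of set A had 618 bp at 3.77, both over the start. RNF2 of set B had 1932 bp at 3.76 there, 190 bp away. A count over every annotated start therefore adds FGF12 to RING1 in set A (23 members, beside 45.7% of all genes). It also adds FGF12 to RNF2 in both sets (11 members, beside 20.3%). FGF13, an X-linked relative, had 606 bp at 4.59 for RING1 and 3479 bp at 3.83 for RNF2 over its outermost start, both in set A, and no set B RNF2 peak within 728 kb. FGF12 and FGF14 thus had their strongest RNF2 peaks of set A at a start inside the gene.

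FGF2 and FGF22 carried narrow peaks in set A. FGF2 (chr4:122826682-122898236) had 1 RNF2 peak of 828 bp over its start with a fold of 3.39, above only 14.4% of that list, and no RING1 peak. FGF22, a ligand that organises presynaptic terminals, had 425 bp at 4.40 for RING1 and 469 bp at 4.62 for RNF2, both over its start. Its nearest set B RNF2 peak was 5.95 kb away.

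Of the 7 ligands without a peak in any list, 6 were far from any RNF2 peak of set A. The distances were 71.6 kb at FGF1, 112 kb at FGF6, 253 kb at FGF7, 438 kb at FGF16, 42.0 kb at FGF4 and 46.6 kb at FGF23. FGF7, a mesenchymal growth factor for epithelia, and FGF16, a heart ligand, stood farthest. FGF21, a metabolic hormone of liver, was just outside the window with an RNF2 peak of set A at 2.61 kb. By subfamily, RNF2 of set A was at 1 of 2 members of the FGF1, 1 of 3 of the FGF4, 3 of 4 of the FGF7, 3 of 3 of the FGF8, 2 of 3 of the FGF9, 4 of 4 of the FGF11 and 1 of 3 of the FGF19 subfamilies, beside 56.1% of all genes. With 2 to 4 genes each, such counts are too small to set a subfamily apart from that share. Every subfamily except FGF1 held at least 1 member with RNF2 in both sets. The 20.8% of all genes with it is a share of single genes. It is no measure for groups with at least 1 such gene, so no excess is shown.

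The neighbouring ligands FGF19, FGF4 and FGF3 on chromosome 11 differed although no other coding gene lies between them. FGF19 (chr11:69698238-69704022) and FGF3 (chr11:69809968-69819416) each carried RNF2 in both sets, with RING1 in set A. FGF4 (chr11:69771022-69775341), a ligand of pluripotent cells and the early embryo, had none. FGF4 lies 67000 bp from FGF19 and 34.6 kb from FGF3, and no peak of any list lay wholly within either interval. The FGF19 peaks of 3 lists reached past the gene end toward FGF4, to 6.52 kb (RING1 of set A), 7.42 kb (RNF2 of set A) and 6.58 kb (RNF2 of set B) from the low-coordinate end of FGF19, whose body ends at 5.78 kb. FGF23 and FGF6, a pair on chromosome 12 separated by 54.4 kb, had no peak at either gene or between them.

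**Figure D3:**
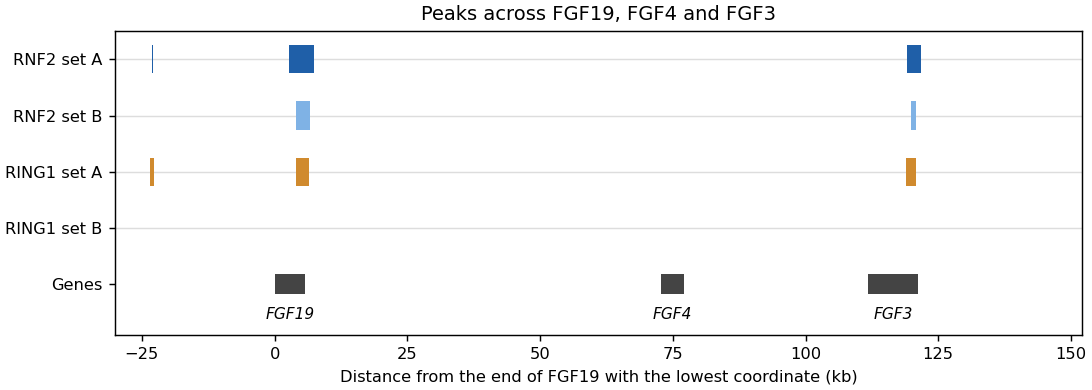
Horizontal bars show called peaks of each list and the bodies of FGF19, FGF4 and FGF3, against distance in kb from the low-coordinate end of FGF19. Peaks of 3 lists stack at FGF19 and at FGF3, and the stretch that holds FGF4 is empty.

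All 4 receptor genes carried RING1 and RNF2 in set A, and FGFR3 alone carried RNF2 in set B. Over all genes these shares were 43.0% and 21.7%, so that 1 of 4 receptors in set B is about the background. With 4 genes, the set A count is too small to set the class apart. FGFR2, FGFR3 and FGFR4 had 25 or more CG dinucleotides at the start. Of all genes with that many, 65.3% had RING1 and 79.2% had RNF2 in set A. FGFR3 (chr4:1793293-1808867), the receptor whose activating changes cause achondroplasia and which marks neural progenitors and astrocytes, had a RING1 fold of 4.16 with 3058 bp, and RNF2 folds of 5.31 and 3.94 in sets A and B with 2272 and 1791 bp. Both set A peaks spanned the start, and the set B peak began 268 bp inside the gene. FGFR3 was the 1 member of 22 at which the RING1 peak of set A was wider than the RNF2 peak.

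FGFR2 (chr10:121478330-121598458), the receptor of limb and skull development, had peaks of 5469 bp at 4.33 for RING1 and 7265 bp at 6.04 for RNF2. The RNF2 fold exceeded 90.9% of its list, yet the nearest RNF2 peak of set B was 168 kb away. FGFR1 (chr8:38411143-38468635), the main receptor of FGF2 in neural progenitors, had 692 bp at 3.36 and 804 bp at 3.54. The FGFR1 RING1 fold was above only 8.67% of its list, with −log10 q of 1.43. A second pair of FGFR1 peaks lay inside the gene, 1140 bp at 3.94 for RING1 and 1450 bp at 4.09 for RNF2. FGFR4 had 320 bp at 4.04 for RING1 and 1373 bp at 3.54 for RNF2, over its start. FGFR2 thus had the widest receptor peaks for both proteins, and the narrowest were at FGFR4 for RING1 and at FGFR1 for RNF2.

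The feedback inhibitors carried peaks in set A only, at 5 of 7. In set B, 21.7% of all genes had RNF2 and 1.32% had RING1, so 0 of 7 there does not set the class apart. Sprouty proteins block the relay from receptor to RAS and ERK, and Spred proteins recruit neurofibromin to RAS. SPRY4 (chr5:142310430-142325021) had 2032 bp at 3.93 for RING1 and 2582 bp at 4.81 for RNF2. SPRED2 had 1321 bp at 3.75 and 2671 bp at 4.11. SPRED3 had 874 bp at 3.71 and 1322 bp at 5.35, the latter with −log10 q of 8.29, and both peaks lay also at an end of GGN, a gene of germ cells. These genes had the wider inhibitor peaks, and in set B their nearest RNF2 peaks were 124, 4.43 and 26.5 kb away.

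SPRY2 and SPRED1 had small peaks beside the start. SPRY2, a Sprouty gene that FGF induces, had 292 bp at 3.31 for RING1, 1560 bp from the start, and 494 bp at 3.87 for RNF2, 329 bp from it. Its RING1 fold was above only 6.07% of the list, and SPRY2 was the 1 member where RING1 and RNF2 peaks of set A did not overlap, with 737 bp between them. SPRED1, the Legius syndrome gene, had 440 bp at 3.57 and 534 bp at 3.49, the RNF2 peak 974 bp from the start. Neither SPRY1 nor SPRY3 had a peak, with the nearest RNF2 peak of set A at 14.6 and 396 kb. When 500 bases of a window had to be covered, RING1 of set A was left at 3 inhibitors, beside 33.5% of all genes.

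**Figure D4:**
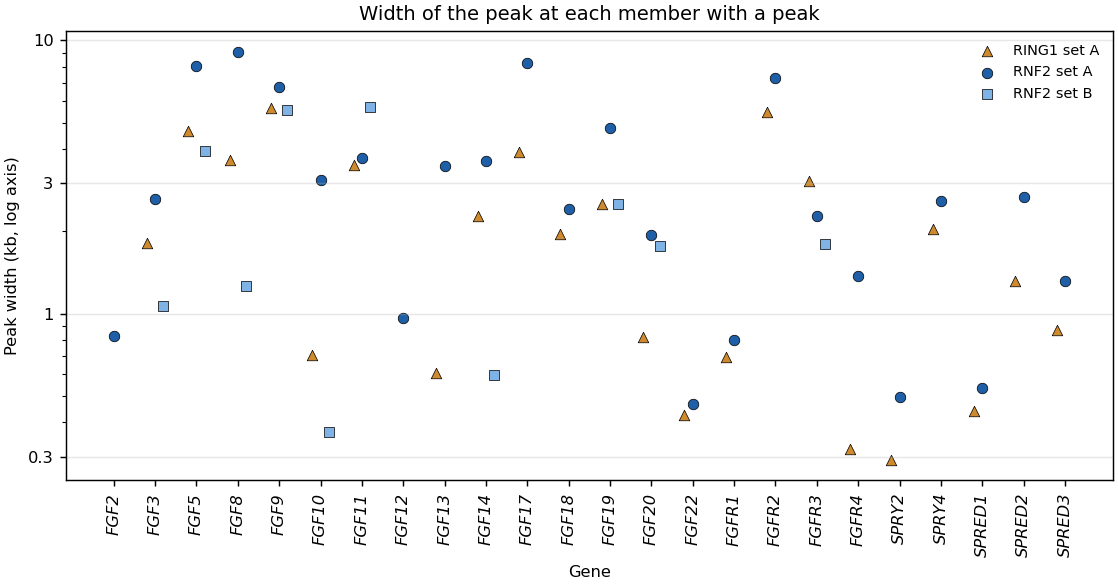
Points give the width of the peak (log axis, kb) at each member with RNF2 in set A, for RING1 and RNF2 of set A and RNF2 of set B. Members with RNF2 in both sets had a median RNF2 width of 3658 bp in set A, and those with RNF2 in set A alone 1348 bp.

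RING1 and RNF2 peaks of set A mostly overlapped at FGF genes. Their peaks overlapped at 21 of the 22 members with both, and the RNF2 peak was the wider at 21. Overlap was not counted over all genes, so it is not shown to be particular to the members. Over the whole lists of set A the median width was also larger for RNF2, at 973 bp beside 704 bp for RING1. RNF2 peaks of set B overlapped those of set A at 10 of 10 members, and RING1 peaks of set A at 10 of 10, by only 73 bp at FGF10 and 70 bp at FGF14. The set A RNF2 peak was wider at 9 of 10, the exception being FGF11. The annotated start lay inside the peak at 10 of 16 members with a known strand for RING1 of set A, at 15 of 18 for RNF2 of set A and at 3 of 6 for RNF2 of set B. Whether both antibodies of a set were called against 1 control was not stated, and its part in the overlap was not tested.

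Members with RNF2 in both sets already had stronger and wider peaks in set A than the rest. Their median RNF2 fold in set A was 5.38 and the median width 3658 bp (n = 10), beside 3.99 and 1348 bp for the 14 members with RNF2 in set A alone. The same split was not made over all genes, so this difference is not shown to be particular to the members. FGF17 and FGFR2 were exceptions, with folds of 6.55 and 6.04 in set A and no set B peak. FGF10 and FGF14 were exceptions in the other direction, at 3.94 and 3.98. Set B holds 5901 RNF2 peaks against 16263 in set A, and with no read depths stated a member without a set B peak cannot be told apart from one below detection.

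Presence of a peak followed the CG content of the start region among the 25 members with a promoter entry. FGF4, FGF8, FGF9, FGF16, FGF17, FGF19, FGF20 and FGFR1 are not among them. The 7 members with an entry and no peak had a median of 8 CG dinucleotides in 300 bases (range 1 to 16), like the FGF1 and FGF6 sequences above. The 6 with RNF2 in both sets had a median of 24.5 (11 to 51), the 12 with peaks in set A only had 31 (15 to 52), and all 15842 protein-coding genes in the table had 22. FGF14, with 11, shows in its sequence above that a recurring peak also occurred at a start with few CG dinucleotides. The recurring members were thus not the richest in CG.

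**Figure D5:**
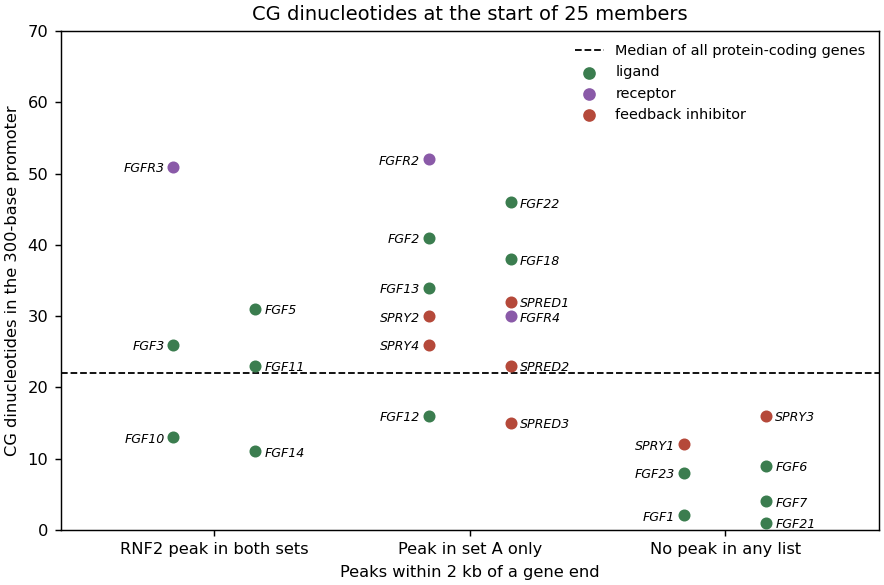
Each point is a member with a promoter entry, placed by the number of CG dinucleotides in the 300 bases around its start and grouped by where it had peaks and coloured by class; the dashed line is the median of 15842 protein-coding genes. The 7 members without a peak lie at 16 or fewer.

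The same gradient held over all genes. RNF2 of set A was at 11.9% of genes with 0 to 4 CG dinucleotides, 37.6% with 5 to 14, 67.4% with 15 to 24 and 79.2% with 25 or more. Members followed it with 0 of 3, 2 of 5, 4 of 5 and 12 of 12. For RNF2 in both sets the shares over all genes were 3.58, 13.1, 24.2 and 29.9%, and the members had 0 of 3, 2 of 5 (FGF10 and FGF14), 1 of 5 (FGF11) and 3 of 12 (FGF3, FGF5 and FGFR3). Read this way, members with 25 or more CG dinucleotides had RNF2 in both sets about as often as other such genes. The letters GGGCGG, the core of a GC box, were present on either strand in 16 of 25 member windows, beside 58.3% of all windows, and in 1 of 7 windows of members without a peak. TATAAA was in 2, at FGF6 and FGF13, beside 9.75% of all windows. These matches describe letters in a window and not bound sites.

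Outside the 33 members, other genes of the pathway carried RNF2 as follows, from lists drawn up by role. For comparison, 20.8% of all genes had RNF2 in both sets and 43.0% had both proteins in set A. Of 11 genes of ligand binding and co-receptors, 5 had RNF2 in both sets, among them FGFRL1, a receptor without a kinase domain (RNF2 folds 5.35 and 3.91 in sets A and B), and KL, the Klotho co-receptor of FGF23 (3.49 and 3.87). Of 20 heparan sulphate genes, 5 had it, led by GPC1, the gene of a glypican (4.73 and 5.67), a share near that of all genes. Of 20 genes of the signal relay, 3 had it, led by SHC1, an adaptor gene, with 7.54 and 5.42. SHC1 was also the only gene of these lists with RING1 in both sets (8.09 and 4.78). Of 8 transcriptional output genes, 8 had RNF2 and RING1 in set A and 4 had RNF2 in both sets, namely EGR1 (5.97 and 4.60), DUSP4 (3.91 and 3.78), DUSP6 (4.19 and 3.70) and FOS (5.16 and 3.62). EGR1 and FOS are immediate early factors, and the DUSP genes encode phosphatases that switch ERK off.

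The authors also deposited a list of 4255 consolidated regions with no measurement attached. Each of them met an RNF2 peak of set A, 99.6% met one of set B, 90.5% met RING1 of set A and 7.19% met RING1 of set B. A consolidated region lay at 10 of 33 members (30.3%), beside 21.0% of all protein-coding genes, and these were the same 10 genes that had RNF2 in both sets. The method of consolidation was not stated, so this list is no independent count of the members.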

How the data were processed

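A commercial kit was used for CUT&RUN, per the labels' protocols. Build hg38 and the tools MACS2 2.2.9.1, deepTools 3.5.2, BWA 0.7.17, Picard 2.8.1, SAMtools 1.9 and bedtools 2.30.0 appear in the submitters' processing notes without roles. The authors deposited 1 broad peak list per antibody and set. The fold per peak is the authors' ratio of signal over background, and the deposited significance is −log10 of the q-value, with 1.01 to 1.08 as the lowest value per list. Control library and read depth: not given in the sources used here. No interval was therefore computed, and a gene without a peak may lie below detection. The authors' consolidated regions carry no measurement. The main fold and width of a member are those of its peak of highest fold.

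Genes came from RefSeq (GRCh38.p14, which hg38 corresponds to), with 20037 protein-coding genes on chromosomes 1 to 22, X and Y. All 33 members matched, and 25 had an entry in the RefSeq promoter table, which also gives strand. A gene was called when a peak came within 2 kb of either end, so peaks at the 3′ end or at a neighbour's promoter count too. No statistical test was made: counts are set beside the share of all protein-coding genes called in the same way. The calling step was tested on simulated data. The members and gene lists were chosen with earlier results of these data known. All members are accounted for, with full values for those with RNF2 in both sets, and of each other pathway list up to 4 genes with the highest smaller RNF2 fold of both sets could be named. The sequences follow that order, among members with a promoter entry, and then family order among members without a peak. Alternatives were windows of 1 and 5 kb, gene bodies, 5′ ends only, a −log10 q of at least 5, lists of equal length, 500 bases covered, 1 set left out, the widest peak and merged peaks. Counts at every annotated start and counts without shared peaks were chosen after seeing the data. Python 3.11.15, numpy 2.4.6, pandas 2.3.3 and matplotlib 3.10.9 were used.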

Additional observations from a re-analysis of the deposited data

How the results depend on the processing

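Of 244 values recomputed under alternatives, 205 stayed within 1.5 times the value reported and 39 did not. Of the 205, 93 were counts of 0 that stayed 0. A stricter setting could not lower these, so under such settings they say nothing about stability. A looser setting could have raised them, as windows of 5 kb raised the feedback inhibitors with RNF2 in set B from 0 to 1. At a −log10 q of at least 5, members numbered 2 for RING1 in set A, 9 for RNF2 in set A, 0 for RNF2 in set B and 0 for RNF2 in both sets. Ligands then numbered 2, 6, 0 and 0, receptors 0, 2, 0 and 0, and feedback inhibitors 0 for RING1 and 1 for RNF2 in set A. Over all genes the shares in that order were 7.97%, 15.7%, 2.56% and 2.41%. With the lists cut to equal length, the 659 most significant peaks, members numbered 0 for RING1 in set A, 0 for RNF2 in set A, 1 for RNF2 in set B (FGF9) and 0 for RNF2 in both sets. Ligands then numbered 0, 0, 1 and 0, receptors 0, 0, 0 and 0, and feedback inhibitors 0 for RING1 and 0 for RNF2 in set A, beside 3.70% of all genes for RING1 in set A and 3.91% and 3.55% for RNF2 in sets A and B. RNF2 in both sets was then at 2.2% of all genes. Both alternatives leave fewer peaks by construction. Windows of 5 kb gave 1 feedback inhibitor for RNF2 in set B and 1 for RNF2 in both sets, SPRED2, beside 24.4% and 23.4% of all genes. With 500 bases covered, RING1 of set A was at 3 feedback inhibitors, beside 33.5% of all genes. With 1 set left out, RING1 ranged from 0 to 22 members, 0 to 13 ligands, 0 to 4 receptors and 0 to 5 feedback inhibitors. RNF2 then ranged from 10 to 24 members, 9 to 15 ligands, 1 to 4 receptors and 0 to 5 feedback inhibitors. The higher values are those without set B. Counts at every annotated start gave 11 members with RNF2 in both sets, beside 20.3% of all genes. Without peaks shared with another gene there were 8, and no share over all genes was computed for that count. No paired analysis was possible because the results come from no test. With no read depths stated, the weight of set B's shorter lists in these counts was not tested.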
